A study of Mus musculus with 32 samples.

Results

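The immunity-related GTPases (Irg) are a family of GTP-binding proteins that mouse cells make in response to interferons. Here the family was followed through 7 genes, Igtp, Irgm1, Irgm2, Iigp1, Tgtp1, Tgtp2 and Ifi47, which were taken by symbol from a mouse annotation of the Ensembl identifiers. All 7 were among the 12451 genes of the count table, and all 7 passed the filter on low counts at both time points. Tgtp1 and Tgtp2 passed it only through the wells with IFN-γ. mRNA of the mouse melanoma cell line YUMM3.3 was measured by BRB-seq, in which each well's cDNA is barcoded, the wells are pooled and transcript 3′ ends are sequenced. The 32 wells formed 8 groups of 4. Cells were left untreated, or were given Activin-A at 40 ng/ml, IFN-γ at 20 ng/ml, or the 2 factors at these doses together, and each of these treatments was sampled at 4 hrs and at 12 hrs. The doses are those of the labels, while some of the study's figure legends give a higher dose of Activin-A. All wells held the same cell line with no other genotype, so that p-values measure the spread between wells of a single line, which may be technical. The comparisons asked how Activin-A, a secreted TGF-β family protein, and IFN-γ act on each other in melanoma cells outside a tumor.

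IFN-γ acts through its receptor and JAK kinases on the promoters of its target genes, at gamma-activated sites and, through the induced IRF1 protein, at interferon-stimulated response elements. The Irg proteins are known for cell-autonomous defense: in infected cells they gather on the vacuoles of Toxoplasma and Chlamydia and disrupt them. Irgm1, Irgm2 and Igtp (also called Irgm3) encode the regulatory members, which sit on the cell's own membranes and hold the others in an inactive state. Iigp1 (Irga6), Tgtp1 and Tgtp2 (Irgb6) and Ifi47 (Irgd) encode the effector members, which load onto the vacuole. In mice, most of these genes lie in clusters on chromosomes 11 and 18.

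The start of transcription of 6 members was covered by RefSeq's promoter windows on GRCm38.p6, each of 250 bases before and 50 bases after the start, while Iigp1 was not in that table. The windows were searched for the gamma-activated site TTCNNNGAA, which reads the same on both strands, and for the core of the response element, GAAA followed after any 2 bases by GAAA, on either strand. The stretches that hold the matches are shown because the members rose together, with each match in capitals, read 5′ to 3′ along the gene.
Igtp, chr11:58199496-58199546, + strand: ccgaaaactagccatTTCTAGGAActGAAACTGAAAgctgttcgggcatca
Irgm2, chr11:58214887-58214937, + strand: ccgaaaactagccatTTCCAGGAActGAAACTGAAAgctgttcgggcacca
Tgtp1, chr11:48992299-48992349, - strand: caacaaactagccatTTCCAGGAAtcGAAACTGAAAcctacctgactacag
Tgtp2, chr11:49064258-49064308, - strand: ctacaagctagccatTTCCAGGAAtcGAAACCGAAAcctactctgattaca
Irgm1, chr11:48871421-48871465, - strand: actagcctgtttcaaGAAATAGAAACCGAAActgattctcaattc

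In 4 of the 6 members, Igtp, Irgm2, Tgtp1 and Tgtp2, the first motif was followed by the second after 2 bases. The first motif began 45 bases before the start in Igtp, 75 in Irgm2, 88 in Tgtp1 and 81 in Tgtp2. Irgm1 held 2 overlapping matches to the second motif and none to the first. The window of Ifi47 held neither set of letters. Among all 32851 promoter windows of the table, 8.3% held the first motif, 3.44% held the second and 0.454% held both. The windows of Igtp and Irgm2 shared an identical run of 61 bases, and those of Tgtp1 and Tgtp2 a run of 27 bases. These matches describe letters only, and binding was not measured here.

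Before the results, the limits that touch these genes are given once. Totals ranged from 654539 to 1455074 counts per well. In counts compared over genes, the first Activin-A well at 4 hrs stood apart: the chi-square per gene with the other 3 wells of its group was 2.45 to 2.89, while the other pairs of wells of a group gave 1.16 to 1.54. Counts of members called by edgeR in tests that use this group are therefore given with and without that well. Exact ratios and single folds are given with it unless stated. The labelled cell type was checked against its markers: of 10 melanocyte genes 9 were in the table, from Pmel at 78 to 169 and Tyrp1 at 51 to 144 counts per well down to Mitf at 2 to 13, Pax3 at 0 to 10 and Ednrb at 0 to 9, with a summed level of 328 to 453 CPM. Of 10 leukocyte and macrophage genes 5 were in the table, from Lyz2 at 2 to 17 and Cd14 and Cd68 at up to 13 counts per well down to Ptprc at 0 to 5 and Csf1r at 0 to 3, with a summed level of 8.82 to 33.7 CPM. Of 4 fibroblast genes 3 were in the table, Col1a1 at 18 to 93, Pdgfra at 5 to 22 and Dcn at 0 to 8 counts per well, with a summed level of 35 to 75.2 CPM. All 3 endothelial genes were absent from the table. CPM are counts relative to the well's total after TMM scaling, log2FC is the log2 fold change, and a difference was called when edgeR's quasi-likelihood test gave an adjusted p (Benjamini-Hochberg over all genes tested) under 0.05.

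IFN-γ raised all 7 members at both times. At 4 hrs, 7 of 7 were called higher than in untreated cells, beside 4.29% of all 9137 genes tested, with a median log2FC of 5.62 over the members and -0.01 over all genes. At 12 hrs, 7 of 7 were called higher, beside 6.43% of all 8971 genes, with a median log2FC of 5.07. In each of the 7, the lowest of the 4 IFN-γ wells lay above the highest untreated well at both times, which held for 6.04% of all genes at 4 hrs and 7.88% at 12 hrs. Together the members held 0.0105% ± 0.00092 (SD, n = 4) of all counts in untreated cells at 4 hrs and 0.375% ± 0.00713 after IFN-γ. At 12 hrs their share was 0.012% ± 0.00117 without and 0.306% ± 0.00521 with IFN-γ.

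**Figure D1:**
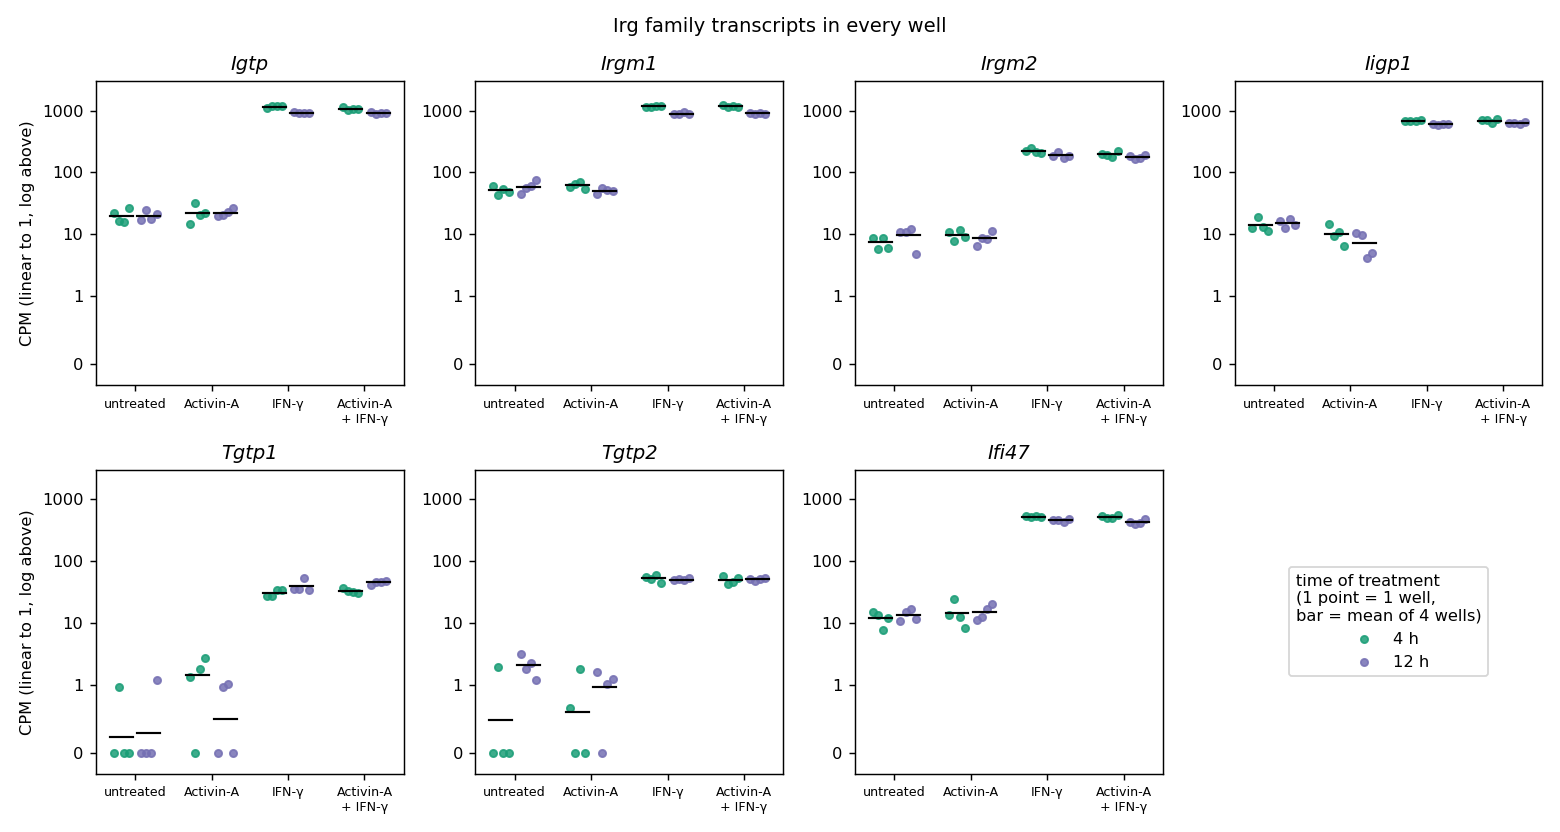
Expression of the 7 Irg members in every well. The y axis is CPM, linear from 0 to 1 and logarithmic above, the x axis gives the treatment, each point is a well, the bar is the mean of 4 wells, and color gives the time (4 h or 12 h). In all 7 panels the wells with IFN-γ, with or without Activin-A, lie above all wells without it, and Tgtp1 and Tgtp2 lie near 0 where IFN-γ was not given.

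Among the regulatory members, Igtp, whose protein is found on the endoplasmic reticulum and on lipid droplets, had 22, 16.4, 15.4 and 26 CPM in the untreated wells at 4 hrs and 1096, 1190, 1171 and 1163 CPM in the IFN-γ wells. The 2 groups were far apart, and the 4 IFN-γ wells differed little among themselves. Igtp was 57.7-fold higher at 4 hrs (95% interval 49.7 to 67, log2FC 5.85 ± 0.11 (SE), edgeR adjusted p = 1.27e-45). At 12 hrs it rose from 20 ± 3.33 CPM (SD, n = 4) to 916 ± 12.5 CPM, or 45.7-fold (40 to 52.2). The ratio of summed counts of Igtp had an exact (Clopper-Pearson) 95% interval of 46.4 to 72.8 at 4 hrs and 37 to 57.9 at 12 hrs. Exact intervals cover counting error only, yet they are wider than the fitted ones. The same held for the other members, so the fitted intervals of the rise with IFN-γ are too narrow.

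Irgm1, a regulator found on the Golgi and on lysosomes, was present before IFN-γ, at 58.9, 43.3, 52.7 and 48 CPM in the untreated wells at 4 hrs. In the IFN-γ wells at 4 hrs it was at 1145, 1147, 1171 and 1187 CPM. Its rise was 23-fold at 4 hrs (20.4 to 25.9) and 15.6-fold at 12 hrs (13.9 to 17.5), the lowest fitted fold of the 7 against untreated cells at each time. Its interval overlaps, however, that of Irgm2 at both times and that of Tgtp2 at 12 hrs. At 4 hrs it also overlaps the exact interval of Tgtp1 given below (21.7 to 4915). Irgm2, the regulator of the same subgroup that lies beside Igtp in the genome, went from 5.77 to 8.79 CPM over the untreated wells to 208 to 246 CPM over the IFN-γ wells at 4 hrs, which is 29.8-fold (23.9 to 37.2). At 12 hrs Irgm2 was 18.9-fold higher (15.2 to 23.5).

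Among the effector members, Iigp1, the member whose vacuole loading has been studied most, had 12.3, 19.2, 13.2 and 11 CPM in untreated and 676, 686, 679 and 704 CPM in IFN-γ wells at 4 hrs. It rose 49.2-fold at 4 hrs (41.8 to 57.9) and 39.4-fold at 12 hrs (33.8 to 45.8). Ifi47 went from 7.68 to 14.9 CPM over the untreated wells to 513 to 532 CPM over the IFN-γ wells at 4 hrs, a rise of 42.7-fold (35.7 to 51.1). At 12 hrs Ifi47 was 33.5-fold higher (28.3 to 39.6). Ifi47 was the member whose promoter window held neither motif.

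Tgtp1 and Tgtp2 are near-identical neighboring genes, and their transcripts were almost absent without IFN-γ. Tgtp1 had 0, 1, 0 and 0 counts in the untreated wells at 4 hrs and 22, 31, 23 and 39 counts with IFN-γ, and Tgtp2 had 0, 2, 0 and 0 against 45, 58, 40 and 51 counts. With so few untreated counts, the ratio of summed counts is given with an exact (Clopper-Pearson) 95% interval, which covers counting error only. At 4 hrs the ratio was 123 (21.7 to 4915) for Tgtp1 and 104 (28.4 to 865) for Tgtp2, and the lower ends of these intervals are what the counts can hold. At 12 hrs Tgtp1 had 1 count over the 4 untreated wells and 153 with IFN-γ, a ratio of 163 (28.9 to 6492), and Tgtp2 had 9 and 197, a ratio of 23.4 (12.1 to 51.9). Both genes were called higher at both times (highest edgeR adjusted p 1.14e-15). With at most 4 counts per well without IFN-γ, they entered the fit only through the wells with it. These calls therefore depend in part on the rise itself and add no separate support to the counts. In GENCODE's transcripts (release M21), 100% of the 50-base words in the last 500 bases of Tgtp2 were also found in Tgtp1, and 80.8% of those of Tgtp1 were found in another gene, Tgtp2 or Gm12185. How the authors assigned reads that match more than 1 gene is not given in the sources used here, so the split between Tgtp1 and Tgtp2 is uncertain. Their summed counts had a log2FC of 6.59 at 4 hrs (edgeR adjusted p = 1.61e-23) and 5.15 at 12 hrs (3.43e-35). The sum does not depend on the split between the 2 genes, but it may depend on reads left out or shared with Gm12185. It, too, had few counts without IFN-γ, so that its calls add no separate support. The same words were shared with other genes in 3.96% for Irgm1 and 4.54% for Ifi47, and in 0% for Igtp, Irgm2 and Iigp1.

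**Figure D2:**
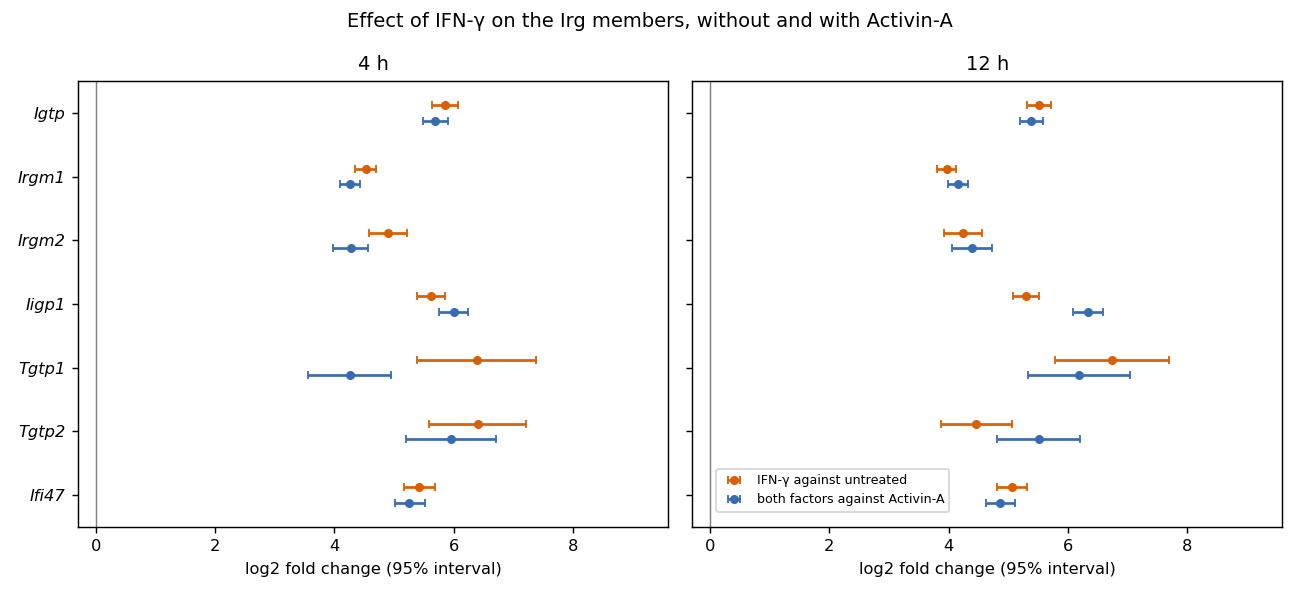
log2FC of IFN-γ against untreated cells and of both factors against Activin-A alone, for the 7 members at 4 h and 12 h. Points are edgeR estimates and bars 95% intervals (1.96 SE, 4 wells a group). All intervals lie above 0, and those of Tgtp1 and Tgtp2 are the widest, with 0 to 4 counts per well where IFN-γ was not given. The bars are narrower than exact counting intervals and overstate the precision.

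With Activin-A present, IFN-γ also raised all 7 members. Against Activin-A alone, 7 of 7 were called higher at 4 hrs, beside 4.41% of all genes tested, and 7 of 7 at 12 hrs, beside 6.18%. log2FC was 4.26 to 6 at 4 hrs and 4.16 to 6.34 at 12 hrs. Iigp1 was 64-fold higher at 4 hrs (54.1 to 75.7) and 80.9-fold at 12 hrs (68 to 96.3). As a ratio of summed counts with its exact interval, Iigp1 was at 64.5 (48.3 to 87.9) and Tgtp2 at 72.4 (24.5 to 354) at 4 hrs, and Iigp1 at 82 (57.6 to 121) and Tgtp1 at 91.1 (24.8 to 759) at 12 hrs, so that these genes cannot be ranked. Without the first Activin-A well at 4 hrs, 7 of 7 members were called higher and log2FC was 4.14 to 6.3. The highest value was that of Iigp1, whose log2FC with that well was 6. The exact ratios at 4 hrs include that well. These comparisons use Activin-A wells as their controls and those above use untreated wells.

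Activin-A given alone moved none of the 7 members past the threshold. At 4 hrs 0 of 7 were called by edgeR and 0 by DESeq2, beside 1.64% of all genes, and 2 had an unadjusted p under 0.05. These were Irgm1, with 58.7, 65.8, 68.7 and 53.5 CPM in Activin-A wells, a log2FC of 0.27 (SE 0.125) and an adjusted p of 0.42 in edgeR, and Tgtp1, with 2, 0, 2 and 3 counts against 1 in all untreated wells and an adjusted p of 0.372. Without the first Activin-A well, 0 of 7 were called and the lowest adjusted p was 0.425. At 12 hrs, too, 0 of 7 were called by either tool, beside 2.41% of all genes. A count of 0 in 7 is near these shares. At 12 hrs 1 member had an unadjusted p under 0.05.

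That gene was Iigp1. Its untreated wells at 12 hrs held 21, 14, 16 and 12 counts and its Activin-A wells 13, 10, 4 and 4 counts. In CPM these are 16.2, 12.5, 17.6 and 14 against 10.4, 9.67, 4.14 and 4.96. All 4 Activin-A wells lay below all 4 untreated wells, and Iigp1 was the only member whose groups did not overlap in this comparison, 1 of 7 beside 6.89% of all genes tested. The fold was 0.509 (95% interval 0.344 to 0.753), and with an edgeR adjusted p of 0.0547 it missed the threshold. It passed in 3 of 8 fits with a single well left out: untreated replicate 2 (adjusted p = 0.0489), Activin-A replicate 1 (0.0347) or Activin-A replicate 2 (0.0486). In the other 5 it was not called, and over these 8 fits the log2FC was -1.22 to -0.78 and the adjusted p at most 0.252. At 4 hrs Iigp1 had 10.2 ± 3.4 CPM with Activin-A and 13.9 ± 3.66 CPM without (SD, n = 4), and the wells overlapped (log2FC -0.38, adjusted p = 0.667). Without the first Activin-A well at 4 hrs the log2FC of Iigp1 was -0.68 (adjusted p = 0.446).

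The activity of Activin-A in the same wells was read from 5 genes known to respond to TGF-β family ligands, Smad7, Skil, Pmepa1, Ccn2 and Thbs1. Activin-A alone raised 5 of 5 at 4 hrs and 3 of 5 at 12 hrs, beside 1.64% and 2.41% of all genes called in either direction. On top of IFN-γ it raised 4 of 5 at 4 hrs and 3 of 5 at 12 hrs, beside 0.81% and 1.03%. Without the first Activin-A well at 4 hrs, Activin-A alone again raised 5 of 5 at that time. Pmepa1, which encodes an inhibitor of SMAD signaling, had a log2FC of 2.45 (SE 0.114) between both factors and IFN-γ at 4 hrs. Over the 5 genes this log2FC was 0.34 to 2.45 at 4 hrs and 0.063 to 1.496 at 12 hrs. Against Activin-A alone, 1 of 5 was called lower with both factors at 4 hrs, with the first Activin-A well included, and 3 of 5 at 12 hrs. Over all genes, 6.07% and 9.62% were called there in either direction.

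When Activin-A was added to IFN-γ, none of the 7 members differed from IFN-γ alone past the threshold. At 4 hrs 0 of 7 were called by edgeR and 0 by DESeq2, beside 0.81% of all genes tested, and 1 member, Irgm2, had an unadjusted p under 0.05. At 12 hrs 0 of 7 were called by either tool, beside 1.03% of all genes, and 0 had an unadjusted p under 0.05. The wells of the 2 groups overlapped for every member at both times. Over all genes, 5.99% at 4 hrs and 5.66% at 12 hrs had groups that did not overlap. Counts of 0 in 7 are near all of these shares and do not set the members apart from other genes. The median log2FC of the members was -0.02 at 4 hrs and 0 at 12 hrs.

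The intervals of these differences are narrow for the members with many counts. At 12 hrs Igtp had 929, 913, 923 and 900 CPM with IFN-γ and 952, 880, 907 and 922 CPM with both factors, a fold of 1 with a 95% interval of 0.929 to 1.08. Irgm1 had 883, 868, 944 and 882 CPM with IFN-γ and 895, 879, 917 and 887 CPM with both factors, again a fold of 1 (0.926 to 1.08). Iigp1 had 611, 578, 614 and 599 CPM with IFN-γ and 622, 629, 610 and 650 CPM with both factors, a fold of 1.05 (0.964 to 1.13). The values of Igtp and Irgm1 interleave in the 2 groups. For Iigp1, only the well at 610 CPM with both factors lay within the range of the IFN-γ wells, the others lay above it, and the interval contains 1. The interval was 0.86 to 1.03 for Ifi47, 0.837 to 1.07 for Irgm2, 0.81 to 1.25 for Tgtp2 and 0.895 to 1.47 for Tgtp1. At 4 hrs Irgm2 had 217, 246, 209 and 208 CPM with IFN-γ and 194, 188, 178 and 217 CPM with both factors, a fold of 0.879 (0.78 to 0.991, adjusted p = 0.503). Igtp at 4 hrs had a fold of 0.92 (0.842 to 1.01), and the other 5 members had folds of 0.964 to 1.07 with intervals that contain 1.

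**Figure D3:**
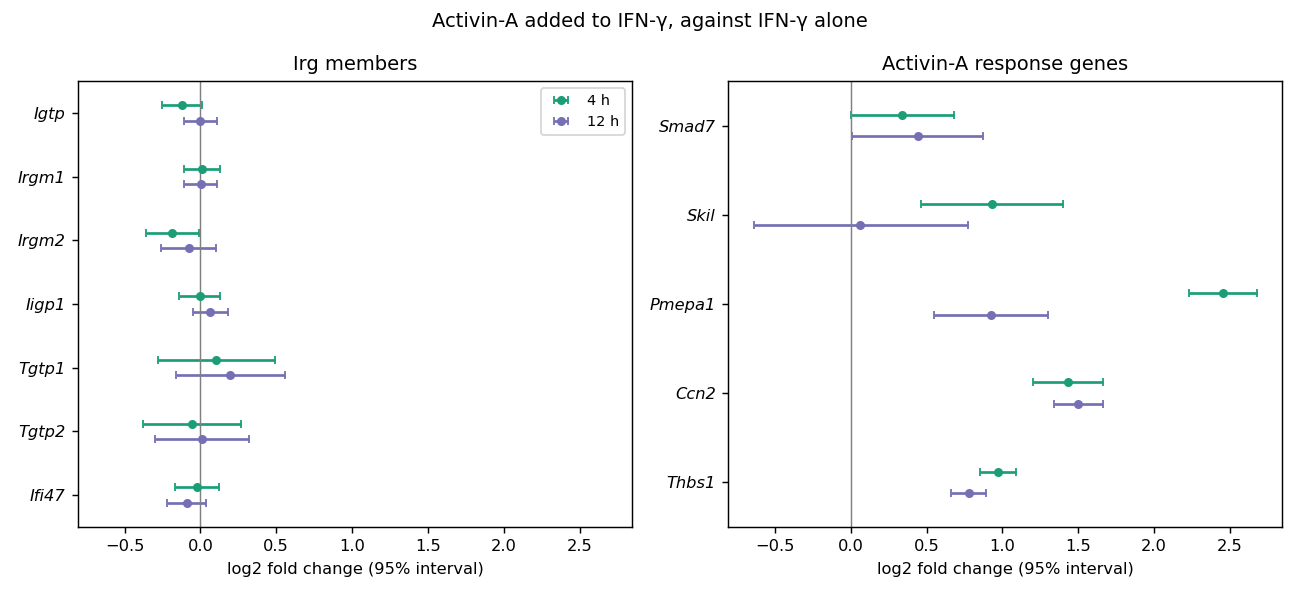
log2FC of both factors against IFN-γ alone at 4 h and 12 h, for the 7 Irg members (left) and for 5 genes known to respond to Activin-A or TGF-β (right), on the same x axis. Points are edgeR estimates and bars 95% intervals (1.96 SE, 4 wells a group). The members lie between -0.19 and 0.20. The response genes lie between 0.34 and 2.45 at 4 h and between 0.063 and 1.496 at 12 h, so that their lowest value lies within the range of the members.

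The difference between the effect of Activin-A with IFN-γ and its effect without was tested as an interaction. At 4 hrs 0 of 7 members were called by edgeR and 0 by DESeq2, beside 0% of all genes, and 1 (Tgtp1) had an unadjusted p under 0.05. At 12 hrs 0 of 7 were called by either tool, beside 0.0111% of all genes, and 1 had an unadjusted p under 0.05. This was Iigp1, with an interaction of 1.04 on the log2 scale (SE 0.294, adjusted p = 0.231), from a fold of 0.509 without IFN-γ and of 1.05 with it. Without the first Activin-A well at 4 hrs, 0 of 7 were called at that time and the lowest adjusted p was 0.861.

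Between 4 and 12 hrs of IFN-γ, the transcripts of some members declined from their level at 4 hrs. This comparison was added after the data had been seen. With IFN-γ alone 3 of 7 members were called lower at 12 than at 4 hrs, beside 3.57% of all 9332 genes tested, and none was called higher. Irgm1 fell from 1163 ± 20.1 to 894 ± 34 CPM (SD, n = 4), a fold of 0.769 (0.71 to 0.833, edgeR adjusted p = 6.25e-07). Igtp fell from 1155 ± 41.1 to 916 ± 12.5 CPM, a fold of 0.792 (0.731 to 0.858, adjusted p = 1.24e-05). Iigp1 fell from 686 ± 12.8 to 600 ± 16.3 CPM, a fold of 0.874 (0.802 to 0.952, adjusted p = 0.0377). The call of Iigp1 was lost without IFN-γ replicate 2 (0.0688) or 4 (0.106) at 4 hrs, or without IFN-γ replicate 1 (0.0502), 2 (0.106) or 4 (0.08) at 12 hrs. Ifi47 was at a fold of 0.868 (0.789 to 0.954) with an adjusted p of 0.0512 and Irgm2 at 0.852 (0.756 to 0.96) with 0.0912, which became 0.035 without IFN-γ replicate 2 at 12 hrs. Tgtp1, at 30.3 ± 3.83 CPM at 4 hrs and 39.5 ± 9.73 CPM at 12 hrs (SD, n = 4), had a fold of 1.3 (1 to 1.69, adjusted p = 0.241), and Tgtp2 had a fold of 0.984 (0.793 to 1.22).

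With both factors, 3 of 7 members were lower at 12 than at 4 hrs, beside 3.42% of all genes. These were Irgm1 (fold 0.761, adjusted p = 2.84e-07), Ifi47 (0.827, adjusted p = 0.0059) and Igtp (0.859, adjusted p = 0.00962). Irgm1 and Igtp were called in both series. Tgtp1 had 36.9, 32.5, 31.4 and 29.8 CPM at 4 hrs and 40.7, 46.2, 46.5 and 46.6 CPM at 12 hrs, a fold of 1.38 (1.08 to 1.77, adjusted p = 0.115). All of its 12 hrs wells lay above all of its 4 hrs wells, as they did for 6.54% of all genes, and it was not called. The folds of the other uncalled members were 0.914 (0.839 to 0.995) for Iigp1, 0.917 for Irgm2 and 1.03 for Tgtp2. The change of the Activin-A effect under IFN-γ between the times was called for 0 of 7 members by edgeR and 0 by DESeq2, beside 0.0964% of all genes, with 0 at an unadjusted p under 0.05. In untreated cells 0 of 7 members were called by either tool between the times, beside 4.9% of all genes. That count is near the share, and 1 member (Tgtp2) had an unadjusted p under 0.05. Tgtp2 had 0, 2, 0 and 0 counts at 4 hrs and 4, 2, 2 and 1 at 12 hrs, with an adjusted p of 0.219, which became 0.0488 without untreated replicate 2 at 4 hrs.

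**Figure D4:**
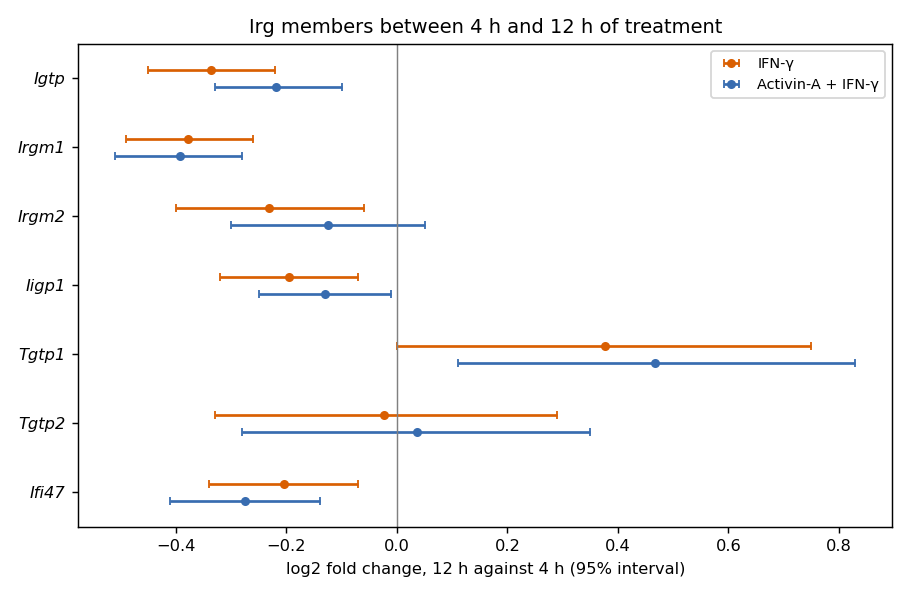
log2FC of 12 h against 4 h for the 7 members, in cells with IFN-γ and in cells with both factors. Points are edgeR estimates and bars 95% intervals (1.96 SE, 4 wells a group). The points of Igtp, Irgm1, Irgm2, Iigp1 and Ifi47 lie left of 0 in both series and those of Tgtp1 right of 0, and the calls are given in the text.

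Set against the untreated cells of each time, the IFN-γ effect at 12 hrs minus that at 4 hrs was called for 1 of 7 members, beside 0.579% of all genes. This was Irgm1, with -0.55 on the log2 scale (SE 0.144, edgeR adjusted p = 0.0493), where the rise was 23-fold at 4 hrs and 15.6-fold at 12 hrs. Its untreated wells were at 50.7 ± 6.67 CPM at 4 hrs and 58.5 ± 12.7 CPM at 12 hrs (SD, n = 4), with 44.1, 55.6, 59.4 and 74.8 CPM in the wells at 12 hrs. The call was lost with the replicate number as a block (adjusted p = 0.0526) and with no filter on low counts (0.051). It stood in 3 of 16 fits with 1 well left out, and its adjusted p ranged from 0.00536 to 0.369 over all alternatives. The difference was -0.43 without the untreated well at 74.8 CPM. The other 6 members had differences of -1.92 to 0.40 and were not called.

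Other genes of the family and of the pathway were read from fixed lists. Of 10 further mouse Irg loci 6 were in the table and 4 passed the filter. IFN-γ raised 3 of the 4 at both times, Gm12185, Gm4841 and Gm4951. These 3 had at most 3 counts per well without IFN-γ and passed the filter only through the wells with it. The share of 3 in 4 therefore depends on the rise itself, and their counts are given as a description. Gm4841 had 0 counts in all untreated wells and 11, 14, 12 and 19 counts with IFN-γ at 12 hrs, at least 15.7-fold higher by the lower end of the exact 95% interval (19.9-fold against a floor of 3 counts over the group). Gm4951 had 0 counts in all untreated wells at 12 hrs and 6, 19, 10 and 27 with IFN-γ, at least 17.4-fold higher by the same lower end (22.1-fold against the floor). Gm12185 had 3 counts over the untreated wells and 141 with IFN-γ at 12 hrs, a ratio of 50.2 (16.8 to 246), and its reads may be shared with Tgtp1. Irgq, a distant member of the family, had a ratio of 0.98 at 4 hrs (0.663 to 1.45) and 0.981 at 12 hrs (0.695 to 1.38) and was not called. Between both factors and Activin-A alone its ratio was 0.584 at 4 hrs (0.412 to 0.821) and 0.659 at 12 hrs (0.448 to 0.959). There, too, it was not called, and the value at 4 hrs includes the first Activin-A well. When Activin-A was added to IFN-γ, 0 of the 4 were called at either time, beside 0.81% of all genes at 4 hrs and 1.03% at 12 hrs. A count of 0 in 4 is near these shares.

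The guanylate-binding proteins (Gbp) are larger interferon-induced GTPases that act on the same vacuoles. Of 11 genes 9 were in the table, 5 passed the filter at each time, and IFN-γ raised 5 of 5 at both times. Beside this, 4.29% of all genes tested were called higher at 4 hrs and 6.43% at 12 hrs. A gene with few counts without IFN-γ can pass the filter through the wells with it, so the share of 5 in 5 may depend in part on the rise. Their median log2FC was 4.66 at 4 hrs and 6 at 12 hrs, and that of the Irg members 5.62 and 5.07. Gbp2 had a log2FC of 5.86 at 4 hrs and 6.46 at 12 hrs. Between 4 and 12 hrs of IFN-γ, 4 of 7 Gbp genes were called higher, beside 4.84% of all genes, and 0 lower.

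Of 10 genes of the IFN-γ receptor, JAK, STAT and IRF proteins, 6 were higher and 1, the receptor chain gene Ifngr2, lower with IFN-γ at 4 hrs, and 6 were higher at 12 hrs. For this and the next lists, 4.29% of all genes were called higher at 4 hrs and 6.43% at 12 hrs. Irf1 had a log2FC of 4.22 at 4 hrs and 3.96 at 12 hrs, and Stat2 of 2.45 and 2.15. Of 5 inhibitors of the pathway, Socs1 and Socs3 were higher at both times. The ubiquitin-like conjugation genes, whose products bring Irg proteins to vacuoles, gave 0 of 10 called by edgeR at either time, with 1 at an unadjusted p under 0.05 at each. In either direction, 5.06% of all genes were called at 4 hrs and 9.25% at 12 hrs, so that a count of 0 in 10 is near the share over all genes. Among 6 ubiquitin-linked genes, Trim21 (log2FC 3.57 at 4 hrs) and Ube2l6 (2.07) were higher at both times and Sqstm1 was lower at 4 hrs, by 0.24 on the log2 scale. In these 4 lists, 0 of 31 genes were called by edgeR between both factors and IFN-γ at either time, with 2 at an unadjusted p under 0.05 at each, beside the 0.81% and 1.03% of all genes given above. A count of 0 in 31 is near these shares.

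**Figure D5:**
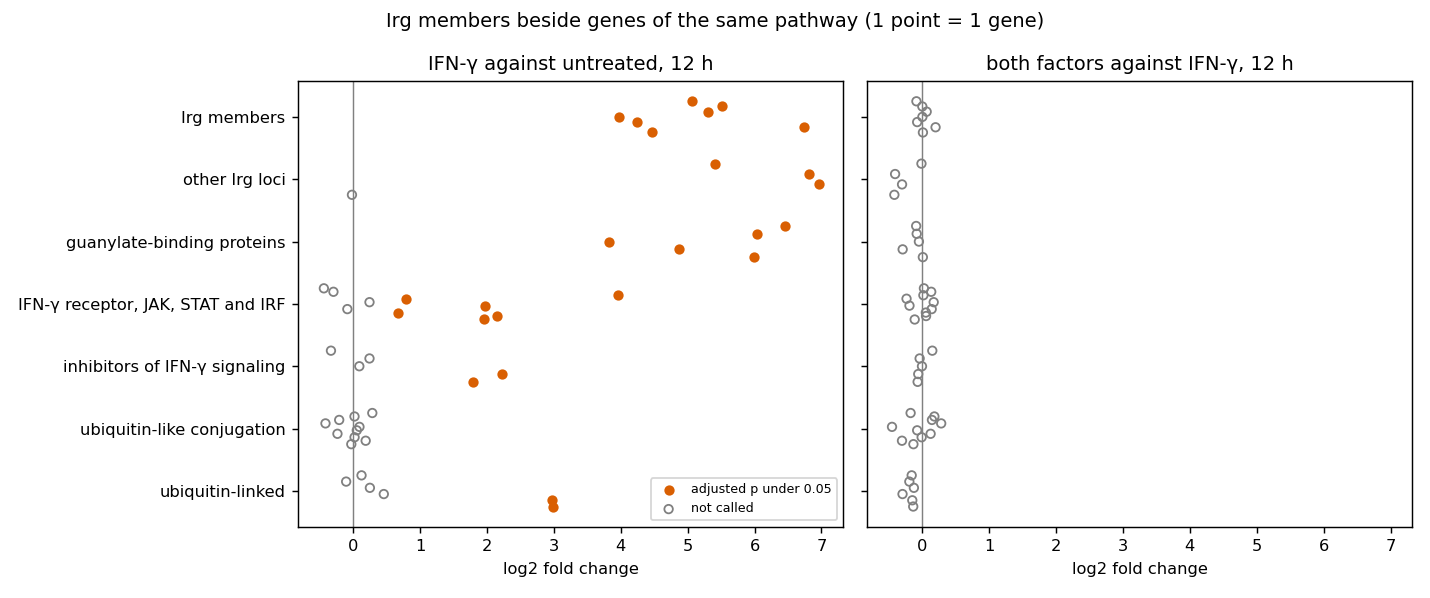
log2FC at 12 h of IFN-γ against untreated cells (left) and of both factors against IFN-γ (right) for the Irg members and 6 fixed lists of related genes. Each point is a gene, filled where the edgeR adjusted p was under 0.05, and the vertical place within a list has no meaning. On the left all 7 members, 3 other Irg loci and all 5 tested Gbp genes lie above 3, and on the right no point is filled. Estimates of Tgtp1, Gm4841 and Gm4951 rest on 0 or 1 untreated counts in all.

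The members differed among themselves in their pattern over the 8 groups. The measure was the root mean square difference between 2 genes' 8 group means of log2 CPM (prior count 2), each centered on the gene's own mean, so that genes are compared by pattern and not by level. On this scale the prior count lowers the rise of genes with few untreated counts: at 4 hrs of IFN-γ, Tgtp1 rose by 3.87 beside a fitted log2FC of 6.38, and Tgtp2 by 4.51 beside 6.4. Distances of Tgtp1 and Tgtp2 are therefore not given. For the other 5 members the rise was 0.05 to 0.31 below the fitted log2FC, with the greatest gap in Irgm2. Among these 5, Irgm1 and Irgm2 were the closest pair at 0.106, and Irgm1 and Iigp1 the farthest at 0.787. Among genes outside the family, Irf1 was the nearest to Irgm2 (0.154) and to Irgm1 (0.162), and Gbp7 to Ifi47 (0.301) and to Igtp (0.303). Gbp2 (0.438) and Gbp7 (0.439) were the nearest to Iigp1. The gap of Irgm2 at 4 hrs, 0.31 beside 0.05 for Irgm1, is larger than the distances of Irgm2 to Irgm1 and to Irf1. These distances may therefore be set by the prior count. The fitted log2FC at 4 hrs was 4.9 for Irgm2 and 4.52 for Irgm1. Without the first Activin-A well at 4 hrs, the closest pair was at 0.111 and the farthest at 0.818, and the nearest genes were again Irf1 (0.141 and 0.156) and Gbp7 (0.314 and 0.319), with Gbp7 (0.444) nearest to Iigp1. These distances describe 8 group means, most of which are set by the presence of IFN-γ.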

How the data were processed

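mRNA of YUMM3.3 cells from 32 wells was measured by BRB-seq (MERCURIUS kit, paired-end sequencing on an Illumina instrument). The authors deposited raw counts per gene by Ensembl identifier without normalization, and their processing notes name STAR 2.7.10b, featureCounts and the build GRCm39. The gene annotation, the strand setting, the treatment of reads that match several genes and the collapse of molecular identifiers are not given in the sources used here. Such settings set how Tgtp1 and Tgtp2 share reads. Of 12451 identifiers, 12437 were matched to a symbol in GENCODE M21, which is on GRCm38, as are the promoter windows from RefSeq. Positions are therefore those of GRCm38.p6 and not of the deposited table.

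For each fit, low-count genes were removed by filterByExpr, totals were scaled by TMM, and edgeR 4.0.16 (R 4.3.3) gave quasi-likelihood tests over the 16 wells of a time point, or over all 32 between time points. Adjustment was by Benjamini-Hochberg over all genes tested, and calls had an adjusted p under 0.05. SE is the absolute log2FC divided by the square root of F, and intervals are 1.96 SE. For the members' rise with IFN-γ these intervals were narrower than those of counting error alone. Printed CPM were scaled over all 32 wells together. Alternatives were DESeq2 1.42.0 (the tool of the authors' methods, there in version 1.36.0), RLE scaling, no filter, at least 10 counts in every well of the fit, the replicate number as a block, other sets of wells in the fit, Tgtp1 and Tgtp2 summed, an adjusted p under 0.01, and each well left out in turn. The contrasts of 12 against 4 hrs within IFN-γ and within both factors were added after seeing the data. In data simulated for IFN-γ against untreated at 12 hrs over 8738 genes, edgeR recovered 58 of 100 genes changed 1.5-fold and 100 of 100 changed 3-fold, with 7 false calls. The simulation gave all genes the same fixed dispersion between wells and changed no genes with low expected counts. These rates therefore do not cover genes with counts as low as those of Tgtp1 and Tgtp2 without IFN-γ.

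All 7 members are named. From each list of related genes, up to 4 are named, those with the highest absolute log2FC among the called, and Ifngr2, Sqstm1 and Irgq were named after their values were seen. Activin-A response genes and cell type markers were outside this rule, and of the markers those with the most and the fewest counts are given. The response genes and the likeness of pattern without the first Activin-A well at 4 hrs were added after seeing the data. For likeness of pattern, the 3 nearest genes to each member were computed and the nearest is given, other than for Tgtp1 and Tgtp2. The members and lists were chosen with earlier results of these data known. A gene of the receptor and STAT list and one of the Activin-A response list are not reported here and were left out of the counts of their lists.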

Additional observations from a re-analysis of the deposited data

Results flagged for a closer look

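Of 56 sets of 4 wells (7 members in 8 groups), 5 held a well far from the other 3 by Dixon's test at the 95% level. Chance gives this in about 1 in 20 sets of continuous values, a rate that does not hold for counts near 0: in 3 of the 5 sets, 3 wells had 0 counts, so that any count in the other well meets the test. All 5 were sets of Tgtp1 or Tgtp2, the members with the fewest counts. Tgtp1 had a single count in 1 of 4 untreated wells at 4 hrs (replicate 2, 0.962 CPM) and in 1 of 4 at 12 hrs (replicate 4, 1.17 CPM), with 0 in the others. Tgtp2 had 2 counts (1.92 CPM) in that same untreated replicate 2 at 4 hrs and 0 in the others. With IFN-γ at 12 hrs, Tgtp1 was at 54 CPM in replicate 3 and at 33.3 to 35.5 CPM in the other wells. With both factors at 12 hrs, Tgtp1 was at 40.7 CPM in replicate 1 and at 46.2 to 46.6 CPM in the others.

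The effect of IFN-γ on Irgm1 differed between the times, by -0.55 on the log2 scale (12 hrs minus 4 hrs, edgeR adjusted p = 0.0493), and the call was lost in most fits with a well left out.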

How the results depend on the processing

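The counts of members called between IFN-γ and untreated cells, and between both factors and Activin-A, were 7 at both times with DESeq2's Wald test, RLE scaling, no filter, the replicate block, other sets of wells in the fit, an adjusted p under 0.01 and each well left out. With at least 10 counts in every well they were 2 at 4 hrs and 3 at 12 hrs, because the filter left only that many members in the fit, and all of these were called. The counts of 0 for both factors against IFN-γ stayed at 0 under every alternative run. With Activin-A alone at 12 hrs the count was 0 to 1 with a well left out (Iigp1), and in untreated cells between the times 0 to 1 (Tgtp2). The count of 1 for the IFN-γ effect at 12 minus 4 hrs became 0 with no filter (Irgm1, adjusted p = 0.051), with the replicate block (0.0526) and at an adjusted p under 0.01, and was 0 to 1 with a well left out. Wells with the same number in different groups did not deviate together (mean correlation -0.000229 over 48 pairs, 7.63e-05 for other numbers), so the numbers were not taken as pairs, and with the replicate block 104 of 105 values for members kept their direction and call, Irgm1 being the exception. The causes of these changes were not tested, apart from the members that the stricter filter removed.

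Of 105 values for members, 23 changed sign under some alternative, and 0 of these had been called. Values near 0 account for most of them. With a well left out, log2FC of both factors against IFN-γ ranged at 4 hrs from -0.027 to 0.035 for Iigp1, -0.005 to 0.034 for Irgm1, -0.054 to 0.005 for Ifi47 and -0.14 to 0.015 for Tgtp2. At 12 hrs it ranged from -0.012 to 0.037 for Irgm1, -0.019 to 0.045 for Tgtp2 and -0.12 to 0.001 for Irgm2. For Activin-A against untreated at 4 hrs it ranged from -0.11 to 0.23 for Igtp, -0.084 to 0.32 for Ifi47 and -0.51 to 2.73 for Tgtp2, and at 12 hrs from -0.02 to 0.26 for Ifi47. The interaction at 4 hrs ranged from -0.34 to 0.068 for Ifi47 and -2.78 to 0.46 for Tgtp2. The change of the Activin-A effect under IFN-γ ranged from -0.037 to 0.019 for Irgm1 and -0.011 to 0.15 for Tgtp2. The IFN-γ effect at 12 minus 4 hrs ranged from -1.18 to 1.94 for Tgtp1. Tgtp2 ranged from -0.11 to 0.018 between the times with IFN-γ and -0.035 to 0.10 with both factors. Untreated cells ranged between the times from -0.13 to 0.13 for Igtp, -1.58 to 1.55 for Tgtp1 and -0.012 to 0.26 for Ifi47. Iigp1 at 4 hrs, both factors against IFN-γ, was 0.007 with no filter and 0.003 with only the 8 wells compared, and Igtp in untreated cells was 0.002 with at least 10 counts in every well. With Tgtp1 and Tgtp2 summed, Tgtp1's values became -0.65 for Activin-A at 12 hrs, 0.75 for the interaction at 12 hrs, -1.42 for the IFN-γ effect at 12 minus 4 hrs and 1.56 between the times in untreated cells. Ifi47 between the times with IFN-γ, not called in the report, was called with RLE scaling (adjusted p = 0.0456), no filter (0.0472) and only the 8 wells compared (0.0159). The values of Tgtp1 and Tgtp2 are limited by their 0 to 4 counts per well without IFN-γ, and why these counts were low was not tested.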
